A study of Homo sapiens with 6 samples.

Results

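The 39 protein-coding genes of the HOX clusters A, B, C and D were examined in Kasumi-1 cells with and without silencing of PHF19. They were chosen by symbol, as the rows of the count table whose name is HOX followed by the cluster letter and a number, which left out antisense transcripts and gave 39 of 26410 rows. Kasumi-1 is a human line of acute myeloblastic leukaemia with the fusion gene RUNX1::RUNX1T1. Total RNA was sequenced from 3 control libraries and 3 libraries of cells with a hairpin against PHF19 (shPHF19). The hairpins came from a lentiviral vector (GV493) that also carries GFP and puromycin resistance, and puromycin selection followed in both groups per the labels. Controls carried a scrambled hairpin per the title of the series, although their own treatment field reads WT. Neither the number of hairpins nor whether each replicate was its own culture is stated. The p-values therefore reflect only how these 6 libraries vary, and that variation may be technical.

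HOX genes encode homeodomain transcription factors that give cells their position along the body axis. Within a cluster they are numbered by position, and genes with the same number in different clusters are paralogs. The clusters are textbook targets of Polycomb repressive complex 2 (PRC2), which methylates histone H3, and PHF19 is a Polycomb-like subunit that helps PRC2 find chromatin. In blood, HOXA and HOXB genes are most active in stem and progenitor cells. High HOXA9 together with its cofactor MEIS1 marks leukaemias with KMT2A fusions or mutant NPM1, whereas leukaemias with RUNX1::RUNX1T1 are known for low HOXA9.

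The libraries held 14229878 to 16615143 counts. The target gene PHF19 had 2724, 3374 and 2920 counts in the control libraries (in the order of replicates 1, 2 and 3, as below) and 554, 570 and 480 in those with the hairpin, which is 5.00-fold lower (log2 fold change -2.32, SE 0.0975; edgeR quasi-likelihood test, adjusted p = 3.55e-25). Of 7 listed myeloblast markers, 5 passed the expression filter and none was at 0. The summed level of the 7 was 7680 to 7970 CPM (counts relative to library size, scaled with TMM factors) in control and 12400 to 13200 CPM in shPHF19 libraries. The 5 erythroid markers summed to at most 1.3 CPM, with 1 of them at 0 in every library, and the 5 fibroblast markers to at most 3.75 CPM. The 6 T cell markers summed to 38.5 to 44.5 CPM in control and 50.3 to 54.6 CPM in shPHF19 libraries, the 5 B cell markers to 62.7 to 73.1 and 48.8 to 55.6 CPM, and the 5 epithelial markers to 54.2 to 70.2 and 82.3 to 97.6 CPM. The part of these marker levels in the HOX values was not tested. In bulk RNA, fewer expressing cells and less RNA per cell cannot be told apart.

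The base sequence just upstream of 4 HOX genes is shown because these genes span the range of values below. HOXA11 was the most abundant member and rose, HOXA13 is the next gene of the cluster and did not, HOXA9 had no count in control cells, and HOXD13 was the one gene of cluster D with more than a few counts. Each line holds the 250 bases before the RefSeq start of the gene (GRCh38.p14), on the gene's strand, with each CG dinucleotide in capitals. The windows are chr7:27185233-27185482 (minus strand) for HOXA11, chr7:27200092-27200341 (minus strand) for HOXA13, chr7:27165538-27165787 (minus strand) for HOXA9 and chr2:176092471-176092720 (plus strand) for HOXD13.
HOXA11: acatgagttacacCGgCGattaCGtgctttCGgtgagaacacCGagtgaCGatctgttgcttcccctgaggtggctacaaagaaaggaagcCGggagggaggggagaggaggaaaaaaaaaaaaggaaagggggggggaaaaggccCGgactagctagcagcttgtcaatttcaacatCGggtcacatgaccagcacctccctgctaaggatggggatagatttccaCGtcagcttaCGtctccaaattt
HOXA13: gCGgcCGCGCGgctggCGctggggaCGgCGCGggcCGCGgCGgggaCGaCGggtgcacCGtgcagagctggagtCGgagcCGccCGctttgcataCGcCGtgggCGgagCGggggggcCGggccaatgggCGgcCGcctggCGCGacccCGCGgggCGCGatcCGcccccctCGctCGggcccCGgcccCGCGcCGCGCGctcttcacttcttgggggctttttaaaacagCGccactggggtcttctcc
HOXA9: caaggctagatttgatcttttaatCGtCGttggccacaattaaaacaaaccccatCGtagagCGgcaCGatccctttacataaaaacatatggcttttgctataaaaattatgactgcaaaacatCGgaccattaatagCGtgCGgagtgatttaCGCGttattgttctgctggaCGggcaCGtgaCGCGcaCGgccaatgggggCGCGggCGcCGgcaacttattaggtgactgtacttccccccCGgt
HOXD13: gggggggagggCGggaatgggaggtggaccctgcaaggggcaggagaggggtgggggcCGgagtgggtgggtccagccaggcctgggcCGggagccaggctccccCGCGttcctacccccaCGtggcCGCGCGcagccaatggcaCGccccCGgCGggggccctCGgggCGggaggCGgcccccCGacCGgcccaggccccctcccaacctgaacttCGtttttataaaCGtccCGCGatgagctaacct

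The motif counted was CG, which reads the same on both strands and does not overlap itself. The HOXA13 window holds 40 CG, a number reached by 2.16% of the 35116 promoter windows of this length in the RefSeq table. HOXA9 has 20, reached by 32.4%, HOXD13 has 21, reached by 30.2%, and HOXA11 has 11, reached by 50.3% and equal to the median of 11 over all windows. In all, 20 of the 39 HOX genes matched the table, with 27 windows, since some genes have several starts. HOXA3 alone has 7 of them.

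HOX expression in Kasumi-1 was narrow, and most of it came from cluster A. Of the 39 genes, 28 had at least 1 count in some library and 11 had none. Only 9 passed the expression filter (filterByExpr in edgeR), among them HOXA3, HOXA4, HOXA5, HOXA10, HOXA11, HOXA13, HOXC10 and HOXD13. The other 19 with counts held 1 to 39 counts over the 6 libraries together. Cluster A gave 5502 of 6224 HOX counts (88.4%), cluster D 485 (7.79%), cluster C 185 (2.97%) and cluster B 52 (0.835%). For a gene without a count the limit is 3 counts, or 0.177 to 0.223 CPM in a single library, by counting error only.

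**Figure D1:**
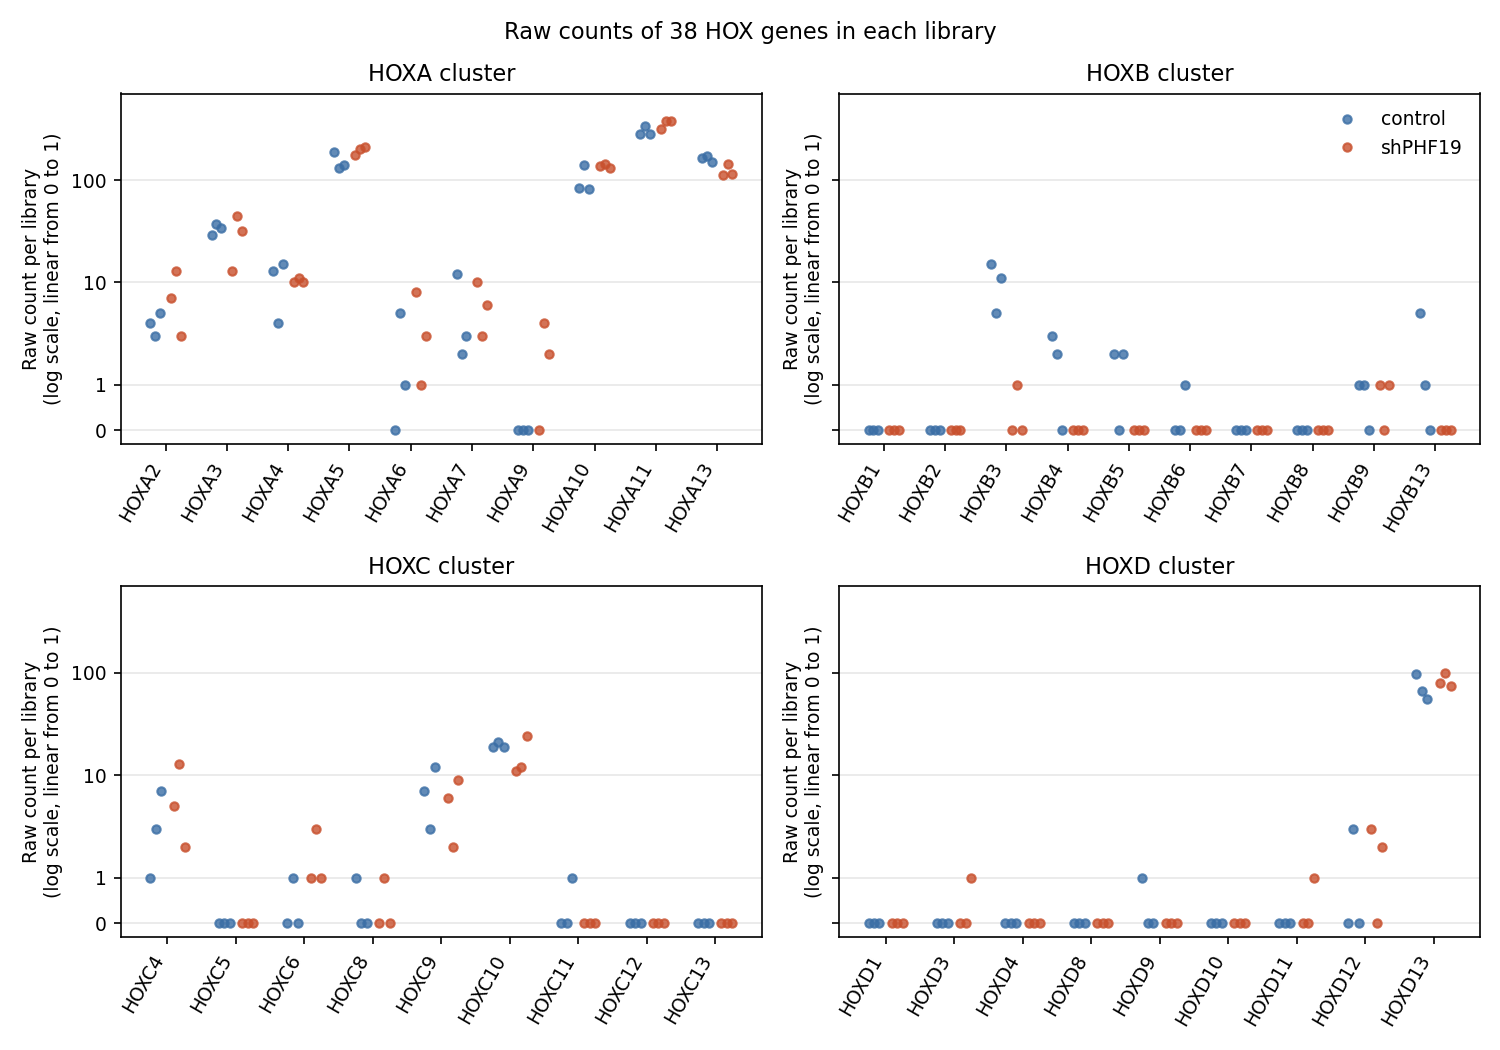
Raw count of each of 38 HOX genes (x axis, by cluster and number) in each of the 6 libraries (points; y axis on a log scale above 1 count and linear from 0 to 1), blue for control and orange for shPHF19. HOXA5, HOXA10, HOXA11, HOXA13 and HOXD13 hold at least 56 counts in every library, and in the HOXB panel the shPHF19 libraries hold 0 or 1 count per gene.

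Expression did not follow gene order along cluster A, which lies on chromosome 7 and is read from the minus strand. HOXA5 (27141052 to 27143668; GRCh38, GENCODE 29, here and below), HOXA10 (27170591 to 27180261), HOXA11 (27181510 to 27185223) and HOXA13 (27193503 to 27200106) were expressed, while HOXA2, HOXA6, HOXA7 and HOXA9 held 35, 18, 36 and 6 counts in all. In cluster D (chromosome 2, 176092891 to 176190907, plus strand), HOXD13, at the posterior end of the cluster, held 474 of the 485 counts and its neighbour HOXD12 held 8. In cluster C (chromosome 12, 53938765 to 54056030, plus strand), HOXC10 held 106 counts, HOXC9 39 and HOXC4 31. Cluster B (chromosome 17, 48528526 to 48729178, minus strand) had no gene past the filter.

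Scaled by exon length, HOXA11, a posterior gene best known from limb, kidney and uterus, had the highest level, at 8.02 ± 0.526 CPM per kb in control and 10.6 ± 0.630 CPM per kb in shPHF19 cells (SD, n = 3 here and below). HOXA5, a central gene with a known part in myeloid differentiation, came next at 5.55 ± 1.10 and 7.88 ± 0.444 CPM per kb. In control cells both stood apart from the gene below them, since their lowest library exceeded its highest. HOXD13 (2.02 ± 0.565 CPM per kb), HOXA13 (1.97 ± 0.0581) and HOXA10 (1.68 ± 0.484) came lower in control, and each of these overlapped the next of them. A gap separated HOXA10 from HOXC10 (0.520 ± 0.0165 CPM per kb), and below it HOXA3 (0.478 ± 0.0549) and HOXA4 (0.383 ± 0.221) again overlapped their neighbours. In shPHF19 cells the first pair kept its order, and HOXD13 was at 2.61 ± 0.294 and HOXA10 at 2.56 ± 0.145 CPM per kb. Exon lengths were taken from GENCODE 29, which may differ from the annotation used for counting.

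**Figure D2:**
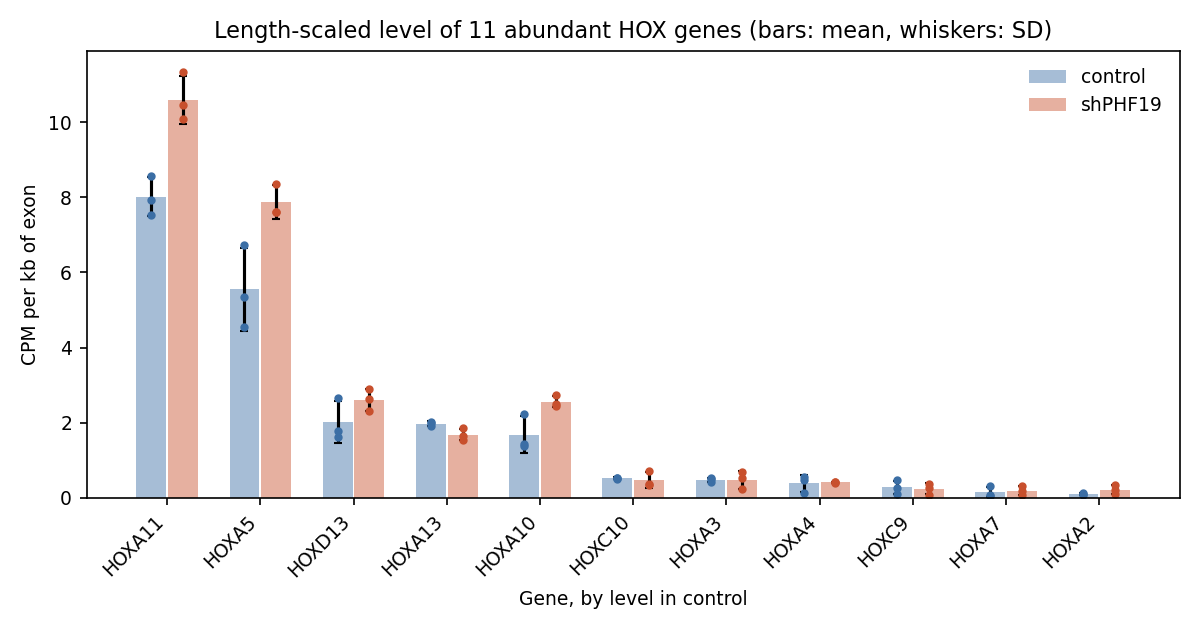
Level per kb of exon (y axis, CPM per kb) of 11 HOX genes (x axis, ranked by control level), with bars for the mean, whiskers for the SD and points for the 3 libraries of each group. HOXC9, HOXA7 and HOXA2, at the low end, did not pass the expression filter. HOXA11 and HOXA5 lead in both groups, at 8.02 and 5.55 CPM per kb in control and 10.6 and 7.88 CPM per kb in shPHF19 cells.

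Of the 9 tested HOX genes, 3 rose when PHF19 was silenced, and none fell. The 3 were HOXA5, HOXA10 and HOXA11, each by less than 2-fold. The share of 3 in 9, all higher, stands beside 60.2% of all 13014 genes tested called at an adjusted p under 0.05. Of all genes, 29.4% were called higher and 30.9% lower. Among the 5497 genes in the same range of mean level (0.692 to 21.6 CPM), 50.4% were called. With only 9 HOX genes, a difference from these shares was not tested. The median log2 fold change of the 9 was 0.16, beside -0.03 for all genes tested. Without control replicate 2 the 9 became 11 tested, with HOXA10 and HOXA11 called higher and HOXB3 lower. That fit called 7486 of all genes, 3712 higher and 3774 lower. HOXB3 passed that filter only through its control counts, so it could not have been called higher.

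HOXA10, a posterior gene expressed in myeloid progenitors, was at 5.10, 8.31 and 5.32 CPM in control replicates 1, 2 and 3 (raw counts 83, 141 and 82). The shPHF19 libraries were at 10.1, 9.27 and 9.09 CPM (136, 143 and 132 counts). The groups do not overlap, and control replicate 2 lies nearest to the shPHF19 libraries. The rise was 1.51-fold (log2 fold change 0.60, SE 0.196; edgeR adjusted p = 0.00775). Leaving out control replicate 1 gave 0.47 (edgeR adjusted p = 0.0517) and leaving out control replicate 3 gave 0.50 (edgeR adjusted p = 0.0509), so neither fit called it. In RefSeq the read-through gene HOXA10-HOXA9 spans HOXA10, and how shared reads were counted is not stated.

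HOXA5 was at 11.5, 7.78 and 9.14 CPM in control libraries (187, 132 and 141 counts). In shPHF19 libraries it was at 13.0, 13.0 and 14.3 CPM (175, 201 and 208 counts). All shPHF19 values exceeded the control values on the CPM scale, although the raw counts overlap. The rise was 1.42-fold (log2 fold change 0.51, SE 0.167; edgeR adjusted p = 0.00827), and it was lost without control replicate 2 (0.39, edgeR adjusted p = 0.0622). In GENCODE 29, HOXA5 shares no exonic base with the other genes checked. Those were the rows of the count table that matched 1 gene.

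HOXA11 was at 17.4, 19.8 and 18.3 CPM in control libraries (283, 336 and 282 counts). It was at 23.3, 24.2 and 26.2 CPM in shPHF19 libraries (314, 374 and 380 counts). The groups do not overlap, and the rise was 1.33-fold (log2 fold change 0.41, SE 0.131; edgeR adjusted p = 0.00637). It stayed called without any 1 library. HOXA11 was the one HOX gene in the authors' deposited table, which gives a log2 fold change of 0.41 and an adjusted p of 0.00563, and whose largest adjusted p over 5740 genes is 0.00993. On the opposite strand, exons of HOXA11-AS cover 31.1% of the exonic bases of HOXA11, and exons of HOXA10-AS cover 16.4% of those of HOXA10. No source used here says whether the counting used strand. The row of HOXA11-AS itself was at 8.62 ± 2.34 CPM in control and 8.45 ± 1.83 CPM in shPHF19 cells (log2 fold change -0.03; edgeR adjusted p = 0.897).

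These 3 calls depend on how the libraries are scaled. The TMM factors of the control libraries lay between 1.064 and 1.085, those of the shPHF19 libraries between 0.9192 and 0.9448. With library totals only, the median over all genes moved from -0.03 to -0.24, and 63.1% of genes were called, 19.9% higher and 43.2% lower, so that 31.5% of calls were higher in place of 48.8%. HOXA5 (0.30, edgeR adjusted p = 0.119), HOXA10 (0.39, edgeR adjusted p = 0.0797) and HOXA11 (0.20, edgeR adjusted p = 0.170) then missed the threshold, still with values above 0. With upper-quartile factors, where the median over all genes was -0.14 and 61.2% of genes were called (24.5% higher, 36.7% lower), the same 3 genes were called higher.

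HOXA13, the last gene of the cluster and a regulator of limb and urogenital development, was at 10.1, 10.2 and 9.66 CPM in control and 8.39, 9.39 and 7.85 CPM in shPHF19 libraries. The groups do not overlap, but the difference was not called (log2 fold change -0.23, approximate 95% interval -0.57 to 0.11; edgeR adjusted p = 0.263). With library totals only it was called lower (-0.43, edgeR adjusted p = 0.0270). In all, 4 of the 9 tested HOX genes had groups that do not overlap, 3 higher and 1 lower, beside a background of 63.5% (30.9% higher, 32.6% lower). HOTTIP, a noncoding RNA that overlaps the start of HOXA13 on the other strand, was at 5.59 ± 0.761 and 5.02 ± 1.49 CPM (log2 fold change -0.16; edgeR adjusted p = 0.569).

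HOXD13, HOXA3, HOXA4 and HOXC10 did not pass the test, and their intervals are wide. HOXD13, a posterior gene of limb and genital development, was at 5.96, 3.95 and 3.63 CPM in control and 5.87, 6.48 and 5.16 CPM in shPHF19 libraries (log2 fold change 0.37, approximate 95% interval -0.08 to 0.82; edgeR adjusted p = 0.164). Control replicate 1 lies among the shPHF19 values, and without it HOXD13 was called higher (0.62, edgeR adjusted p = 0.0380). HOXA3, a gene of pharyngeal arch development, had a log2 fold change of -0.01 with an interval of -0.74 to 0.73. HOXA4 had one of 0.11 (interval -1.0 to 1.22) and HOXC10 one of -0.16 (interval -1.05 to 0.73). Changes as large as those of HOXA5 and HOXA10 lie within the intervals of HOXA3, HOXA4, HOXC10 and HOXD13.

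**Figure D3:**
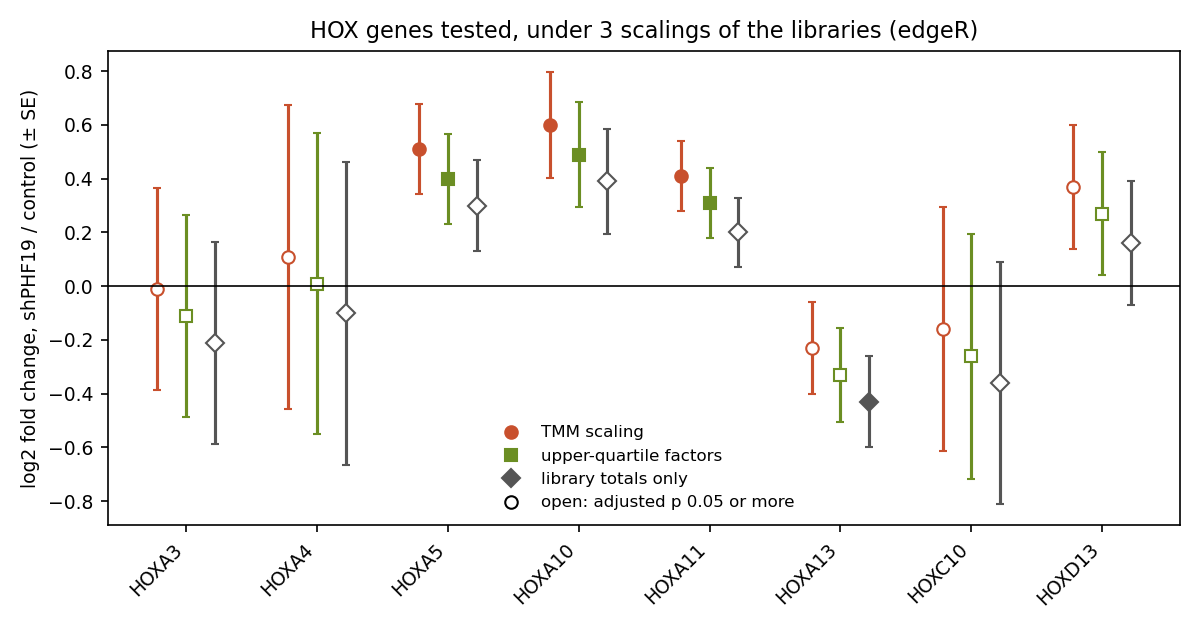
Log2 fold change of shPHF19 over control (y axis, whiskers ± SE) for 8 of the HOX genes tested (x axis), under TMM scaling (circles), upper-quartile factors (squares) and library totals only (diamonds), filled where the edgeR adjusted p is under 0.05. HOXA5, HOXA10 and HOXA11 are filled under TMM and upper-quartile scaling, and HOXA13, at -0.43, is the one filled with library totals only.

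The clearest difference below the filter was in cluster B. Its 10 genes together held 26, 9 and 14 counts in control libraries and 1 count in each library with the hairpin. That is 1.01 ± 0.542 CPM in control and 0.0693 ± 0.00474 CPM in shPHF19 cells (SD, n = 3), a ratio of 14.6 with an exact (Clopper-Pearson) 95% interval of 4.70 to 73.1 that covers counting error only. No HOXB gene had more counts in shPHF19 than in control cells, 5 had fewer, and HOXB1, HOXB2, HOXB7 and HOXB8 had none anywhere. Of all 19 HOX genes below the filter, 8 had fewer counts in shPHF19 cells, 9 had more and 2 had equal counts. Over the whole table, 16447 to 16643 genes had a count in control libraries and 15840 to 15969 in shPHF19 libraries. The share of all low-count genes with fewer counts in shPHF19 cells was not computed.

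HOXB3, an anterior gene that is expressed in haematopoietic stem cells, made up most of this. It held 15, 5 and 11 counts in control libraries against 0, 1 and 0 in shPHF19 libraries, and the groups do not overlap. The summed counts of 1 and 31 give a level in shPHF19 cells of 0.0362 times that in control (exact 95% interval 0.000887 to 0.217, counting error only). The single count came from shPHF19 replicate 2, and with another shPHF19 library left out the value was 0.0524 or 0.0543. In the edgeR fit of all 19419 rows with a count, HOXB3 was called lower (adjusted p = 0.00200), where 40.5% of rows were called, 20.5% lower and 20.0% higher. HOXB3 was the one HOX gene added by that fit, which also called HOXA5, HOXA10 and HOXA11 higher. DESeq2 called HOXB3 as well (adjusted p = 0.00584, with 46.8% of genes called, 23.2% lower and 23.6% higher). HOXB3 is absent from the authors' deposited table, whose smallest mean normalized signal is 10.05. With 32 counts over 6 libraries, HOXB3 lies below that. Leaving out any 1 library in the unfiltered edgeR fit kept the call, with adjusted p-values up to 0.0272. HOXB3 overlaps exons of HOXB4 and HOXB6 on its own strand over 7.9% of its exonic bases.

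The rest of cluster B rests on very few counts. HOXB4, which expands haematopoietic stem cells when overexpressed, held 3, 2 and 0 counts in control libraries and none in shPHF19 libraries. HOXB5 held 2, 0 and 2 against none, HOXB6 0, 0 and 1 against none, and HOXB13 5, 1 and 0 against none. HOXB9 held 2 counts in each group. None of these was called in the unfiltered edgeR fit (adjusted p was 0.163 for HOXB4, 0.212 for HOXB5, 0.519 for HOXB6, 0.125 for HOXB13 and 0.956 for HOXB9). Without HOXB3 the cluster held 18 and 2 counts, a ratio of 8.03 (exact 95% interval 1.92 to 71.4, counting error only). Control replicate 1 held 11 of the 18 counts, and without it the ratio was 4.69, while without shPHF19 replicate 2 it was 5.18.

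No other HOX gene below the filter was called in the unfiltered fit. HOXA9, the leukaemia-linked posterior gene, had 0 counts in each control library and 0, 4 and 2 in the shPHF19 libraries (unfiltered edgeR fit, adjusted p = 0.0915). The read-through gene HOXA10-HOXA9, which spans both genes in RefSeq, has its own row with no count in any library. No source used here says how shared reads were counted, so few HOXA9 transcripts and reads left unassigned cannot be told apart. The level and the rise of HOXA10 are uncertain for the same reason. HOXA2 held 4, 3 and 5 counts in control and 7, 13 and 3 in shPHF19 libraries, a ratio of shPHF19 to control of 2.15 without a call (edgeR adjusted p = 0.367). Its exact 95% interval of 1.03 to 4.74, like those that follow, covers counting error only, and the libraries within a group differed by more. With 1 library left out the HOXA2 ratio was 1.45 to 2.81. HOXA6 held 0, 5 and 1 against 8, 1 and 3 counts (ratio 2.24, interval 0.779 to 7.28), and its ratio was 1.08 without shPHF19 replicate 1 and 8.76 without control replicate 2. HOXA7 held 12, 2 and 3 against 10, 3 and 6 counts (1.25, 0.616 to 2.57), with a ratio of 2.84 without control replicate 1 and 0.860 without shPHF19 replicate 1. HOXC4 held 1, 3 and 7 against 5, 13 and 2 counts (2.04, 0.931 to 4.71), with a ratio of 1.11 without shPHF19 replicate 2 and 3.83 without control replicate 3. HOXC9 held 7, 3 and 12 against 6, 2 and 9 counts (0.866, 0.432 to 1.71), with ratios of 0.612 to 1.3 when 1 library was left out. None of the 5 was called, and single libraries carry these ratios. Antisense exons of HOXA-AS3 cover 62.5% of the exonic bases of HOXA7 and 39.3% of those of HOXA6. HOXC6 held 0, 1 and 0 counts in control and 1, 3 and 1 in shPHF19 libraries (unfiltered edgeR fit, adjusted p = 0.366). With 6 counts in all, its groups do not overlap on the CPM scale, like those of HOXB3 but with shPHF19 higher. In the control and shPHF19 groups, HOXC8 held 1 and 1 counts and HOXC11 1 and 0. HOXD12 held 3 and 5, HOXD3 and HOXD11 0 and 1 each, and HOXD9 1 and 0. HOXC5, HOXC12, HOXC13, HOXD1, HOXD4, HOXD8 and HOXD10 had none. HOXC4, HOXC5 and HOXC6 share an annotated start in RefSeq, so their counts are uncertain for the same reason as HOXA9.

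Summed by cluster, genes of cluster A came to 53.5 ± 1.87 CPM in control and 66.7 ± 0.986 CPM in shPHF19 cells (log2 ratio 0.32, or 0.11 with library totals only). These sums were not tested. The sums of cluster D were 4.59 ± 1.26 and 6.00 ± 0.525 CPM (log2 ratio 0.39, or 0.18 with library totals only). Those of cluster C were 1.97 ± 0.488 and 2.06 ± 0.389 CPM, with a log2 ratio of 0.07 that turned to -0.13 with library totals only and ran from -0.08 to 0.29 with 1 library left out. The log2 ratio of cluster B was -3.87.

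The noncoding RNAs of the clusters were mostly silent. Of 22 listed, 17 have a row, 6 of them with no count, and 3 passed the filter, of which HOTAIRM1 fell, beside 30.9% lower over all genes. HOTAIRM1 is a myeloid noncoding RNA on the plus strand of chromosome 7 from 27095647 to 27100265, opposite to the HOXA genes. It held 152, 105 and 119 counts in control and 54, 67 and 45 in shPHF19 libraries, or 7.75 ± 1.58 and 3.82 ± 0.644 CPM (log2 fold change -1.02, SE 0.222; edgeR adjusted p = 0.000106). The groups do not overlap, and the call held under every alternative run (log2 fold change -1.23 to -0.86).

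HOX proteins bind DNA together with TALE homeodomain proteins. Of 11 listed TALE genes and the PBX-binding protein PBXIP1, 9 were tested, 2 rose, 2 fell and 5 did not pass (median log2 fold change -0.08). The share called was 44.4%, beside 60.2% of all genes (29.4% higher, 30.9% lower). Without PBXIP1, which is no TALE protein, 2 of 8 rose and 1 fell, with a median of 0.03. Scaled by library totals only, 2 of the 9 rose and 4 fell, where 19.9% of all genes were higher and 43.2% lower. TGIF1, a TALE repressor of TGF-beta signalling, fell from 80.0 ± 2.50 to 26.3 ± 1.07 CPM (-1.60; edgeR adjusted p = 2.74e-18), while its paralog TGIF2 rose from 65.6 ± 2.75 to 129 ± 10.9 CPM (0.98; edgeR adjusted p = 5.65e-13). PBX3, a cofactor of HOXA9 in leukaemia, rose from 31.4 ± 1.58 to 51.9 ± 4.81 CPM (0.72; edgeR adjusted p = 1.52e-07). PBXIP1, which binds PBX proteins and keeps them from DNA, fell from 81.8 ± 4.85 to 61.3 ± 4.42 CPM (-0.42; edgeR adjusted p = 0.000206). MEIS1, named outside the rule because of its link to HOXA9, held 4, 19 and 12 counts in control and 30, 8 and 3 in shPHF19 libraries. Its libraries differ more within each group than the groups do (log2 fold change 0.42, SE 0.595; edgeR adjusted p = 0.558).

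Of 24 listed regulators of HOX genes, all were tested, 6 rose, 7 fell and 11 did not pass (median log2 fold change -0.09). The list was not of chromatin regulators alone, since it also held NPM1, XPO1 and NUP98. These shares of 25% higher and 29.2% lower are near the 29.4% and 30.9% of all genes. KDM6B, a demethylase that removes the PRC2 mark, fell from 96.9 ± 11 to 35.7 ± 1.49 CPM (-1.44; edgeR adjusted p = 5.88e-17). DOT1L, the H3 methyltransferase that KMT2A fusions recruit, rose from 164 ± 10.7 to 286 ± 33.3 CPM (0.80; edgeR adjusted p = 5.37e-11). PSIP1, which tethers KMT2A to chromatin, fell from 121 ± 15.1 to 75.5 ± 5.15 CPM (-0.68; edgeR adjusted p = 2.34e-08), and WDR5, a core subunit of KMT2 complexes, rose from 128 ± 2.38 to 189 ± 9.28 CPM (0.56; edgeR adjusted p = 1.26e-07). With library totals only the counts were 5 higher and 15 lower (19.9% and 43.2% of all genes), and with upper-quartile factors 5 higher and 12 lower (24.5% and 36.7% of all genes). These 4 genes kept their direction and call under both.

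Genes on either side of the clusters, not all of them direct neighbours, were tested for 10 of 18 listed. Of the 10 tested, 4 fell, none rose and 6 did not pass (median log2 fold change -0.23). Beside the 4 of 10 that fell, 30.9% of all genes were called lower, and 29.4% higher. With library totals only 7 fell, where 43.2% of all genes were lower, and with upper-quartile factors 6, where 36.7% were. CALCOCO1 and CBX5, on the chromosome of cluster C, fell from 56.5 ± 4.45 to 27.6 ± 2.55 CPM (-1.03; edgeR adjusted p = 3.13e-11) and from 313 ± 22.5 to 225 ± 6.24 CPM (-0.47; edgeR adjusted p = 2.65e-06). CALCOCO2, an autophagy receptor on the chromosome of cluster B, fell from 222 ± 10.6 to 142 ± 17.8 CPM (-0.64; edgeR adjusted p = 2.09e-08). SNX10, on the chromosome of cluster A (26291895 to 26374329), fell from 22.4 ± 3.83 to 17.6 ± 2.75 CPM (-0.35; edgeR adjusted p = 0.0340). SKAP2 lies between SNX10 and the cluster. The SNX10 call was lost without control replicate 1 (-0.20, edgeR adjusted p = 0.282), shPHF19 replicate 1 (-0.28, 0.0992) or shPHF19 replicate 2 (-0.27, 0.160). The caudal and related homeobox genes, the nearest kin of HOX outside the clusters, gave 13 rows, none of which passed the filter and 8 of which had no count.

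Of 12 genes that have been reported as targets of HOXA9 and MEIS1, 11 were tested, 4 rose, 4 fell and 3 did not pass (median log2 fold change 0.13). The shares of 36.4% in each direction stand beside 29.4% higher and 30.9% lower over all genes. Scaled by library totals only, 3 rose and 5 fell (19.9% and 43.2% of all genes). The transcription factor ERG rose from 88.0 ± 7.55 to 173 ± 8.55 CPM (0.98; edgeR adjusted p = 1.63e-13) and the cell cycle kinase CDK6 from 350 ± 48.0 to 495 ± 22.2 CPM (0.50; edgeR adjusted p = 2.54e-06). The kinase PIM1 fell from 258 ± 8.21 to 145 ± 8.69 CPM (-0.83; edgeR adjusted p = 4.31e-12) and the inhibitor ID2 from 19.5 ± 2.49 to 8.32 ± 1.20 CPM (-1.23; edgeR adjusted p = 6.38e-09).

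**Figure D4:**
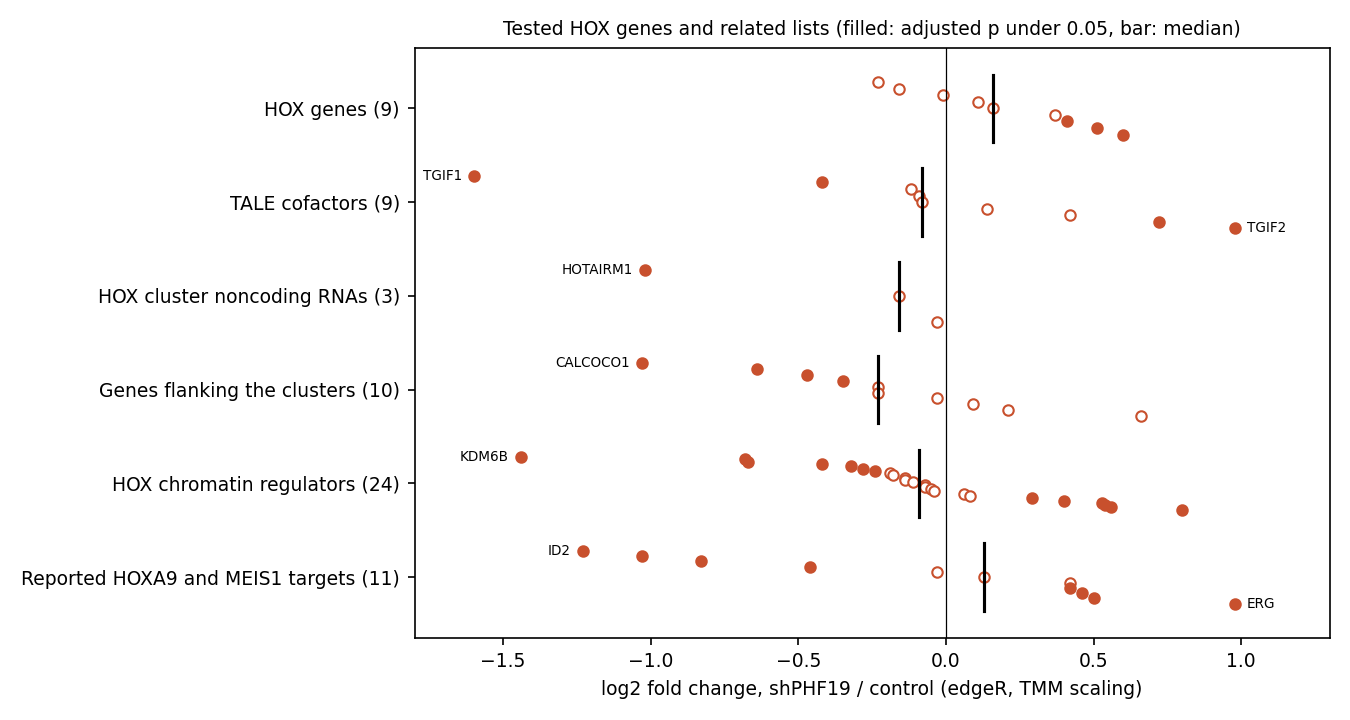
Log2 fold change of shPHF19 over control (x axis, edgeR with TMM scaling) for tested members of the HOX clusters and of 5 related lists (y axis, number tested in brackets), filled where the adjusted p is under 0.05, with a bar at each list's median. The HOX genes lie between -0.23 and 0.60 and the TALE cofactors between -1.60 and 0.98, and named points are the lowest or highest of their list.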

How the data were processed

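The build hg38, the aligner HISAT2 (2.1.0) and the counter HTSeq (0.11.2) are named in the submitters' processing notes. No source used here gives the annotation or the strand setting. The authors deposited whole-number counts per gene symbol, not normalized, and a table of their own comparison with a mean normalized signal per gene, log2 fold changes, their errors, and raw and adjusted p-values, in which no adjusted p exceeds 0.00993. Groups and replicate numbers came from the sample titles.

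Counts were fitted with edgeR 4.0.16 (R 4.3.3): filterByExpr, TMM scaling, group as the only term, robust quasi-likelihood F test, and Benjamini-Hochberg adjustment over the 13014 genes tested with a threshold of 0.05. The SE is the log2 fold change divided by the square root of F, and approximate intervals assume a normal error. Every count and adjusted p of HOX genes came from fits of the whole table. The fit was tested on simulated data. Few genes were changed there, so that test does not bear on the choice of scaling. Alternatives were library totals only, upper-quartile factors, no filter, 1 CPM in 3 libraries, the replicate block, DESeq2 1.42.0 and each library left out. The unfiltered fits combined with a second change, the count ratios with a library left out and the TALE list without PBXIP1 were added after seeing the data. No replicates matched within sampling noise (the chi-square per degree of freedom of each pair was 4.63 to 11.7). Positions came from GENCODE 29, in which 38 of 39 HOX rows matched 1 gene (HOXC5 did not). Upstream sequences came from RefSeq (GRCh38.p14).

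All HOX genes enter the counts and sums, and the values of 1 of them are not reported here. Of the related lists, up to 4 members with the smallest adjusted p were named. The members and lists were chosen with earlier results of these data known.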

Additional observations from a re-analysis of the deposited data

How the results depend on the processing

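Of the 9 tested HOX genes 3 were called. With library totals only there was 1 call (0 higher, 1 lower). DESeq2 and the fit without a filter each gave 1 lower gene in place of 0, HOXB3, because these fits tested it. Leaving out 1 library gave 2 to 4 calls, 2 to 3 higher and 0 to 1 lower. Over all genes these fits called 7099 to 7759, with 3473 to 3790 higher and 3626 to 3969 lower. HOXB3 was the lower call, in the 4 of 6 fits whose filter it passed. It passed only through its control counts, so these calls add no support for its fall. HOXA10, HOXA5 and HOXD13 changed as given above. HOXA11 was called higher in every alternative but library totals only.

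Values that were not called changed sign in some settings. With library totals only, HOXA4 was at -0.10. HOXA3 was at 0.01 with DESeq2 and 0.02 without a filter. Leaving out 1 library gave HOXA3 -0.36 to 0.32 (highest without shPHF19 replicate 1), HOXA4 -0.29 to 0.47 (lowest without control replicate 2) and HOXC10 -0.60 to 0.04 (highest without shPHF19 replicate 2). It gave HOTTIP -0.35 to 0.07, HOXA11-AS -0.20 to 0.20 and MEIS1 -0.95 to 0.92. The causes were not tested.

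The replicate numbers did not pair the libraries: deviations from the group means correlated at -0.164, -0.007 and -0.054 between same-numbered libraries, and no library correlated best with its own number. With the replicate block 3 HOX genes were called, the same 3 as without it, and 7307 of all genes in place of 7835. HOXB3 kept its call in the unfiltered fit with the block (adjusted p = 0.0124). SNX10 missed the threshold with the block (-0.34, adjusted p = 0.0515), without a filter (-0.32, 0.0540) and with DESeq2 (-0.32, 0.0987). With 1 to 39 counts over all libraries, the 19 HOX genes below the filter allow only large differences to be seen.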
